A study of Mus musculus with 6 samples.

Results

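The genes described here were 10 genes used in the mouse as marks of germ-cell identity, *Ddx4*, *Dazl*, *Dnd1*, *Pou5f1*, *Tex19.1*, *Taf7l*, *Slc25a31*, *Tex15*, *Rnf17* and *Tex101*. They were picked for their known roles, with earlier results of these data in view, and were found by gene name in the deposited expression table, where all 10 had 1 row each among 54532 genes. RNA had been sequenced from whole mouse testes at 5 days postpartum (dpp), with 3 control (Ctrl) and 3 conditional knockout (cKO) libraries described as biological replicates. The cKO mice were *Vasa*-Cre *Srsf1* Fl/del: Cre under the control of *Vasa*, another name for *Ddx4*, removed *loxP*-flanked exons of *Srsf1*, which encodes a splicing factor, from germ cells, and the second allele was already deleted. Whether the somatic cells of the cKO mice also carried that deleted allele was not stated in the sources used here. The labels name the control genotype only as Ctrl, and whether those mice carried Cre or a floxed allele, and how many testes went into a library, were not given in the sources used here. Because whole testes were used, the libraries held RNA of Sertoli, Leydig, peritubular, endothelial and immune cells beside that of germ cells.

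Germ cells of the neonatal testis are gonocytes that have moved, or are moving, to the basement membrane of the seminiferous cords, where they become spermatogonia. Germ cells keep a set of genes that somatic cells hold silent, often by DNA methylation of the promoter, and some only up to a given stage. The set encodes RNA-binding proteins and helicases of the germ granules, germline copies of general transcription factors, and proteins that hold transposons in check. The products of these genes mark germ cells in sections, and the RNA of such genes in a whole testis reflects both the number of germ cells and the amount made in each.

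Sequences upstream of these genes were taken from RefSeq (GRCm38.p6), where 7 of the 10 genes were found with 8 promoters of 250 bases before and 50 after the start. *Dnd1*, *Tex15* and *Rnf17* were not matched. A pair of short motifs was searched on both strands: the E-box CACGTG, which reads the same on both strands, and the E2F-type motif TTCCCGC, which reads GCGGGAA on the opposite strand. These motifs were picked with the sequences in view. The E-box stood in 3 of the 8 promoters, those of *Ddx4*, *Taf7l* and *Slc25a31*, and in 7.15% of the 32851 mouse promoters of the same length. The E2F-type motif stood in 2, those of *Ddx4* and *Slc25a31*, and in 4.60% of all promoters. Both motifs stood together in the promoters of *Ddx4* and *Slc25a31* and in 0.457% of all. The motifs did not overlap. A match is a description of the letters and was not tested for binding. The *Ddx4* E-box lies within 1 of the study's genotyping primers for *Vasa*-Cre, the only 1 of 4 such primers found in the *Ddx4* window. It covers chr13:112652316-112652339, from 29 to 6 bases before the RefSeq start, read on the minus strand of the gene. In the annotation this stretch lies in exon 1, in the 5′ untranslated region, of the *Ddx4* transcript that starts farthest upstream, and before exon 1 of another. The primer is printed to show where *Vasa*-Cre genotyping meets the sequence of a member, and the upstream stretches of *Taf7l*, *Slc25a31* and *Dazl* to compare a pair of promoters that hold the E-box with that of the member at the highest level, which holds neither motif. Each is written 5′ to 3′ on the strand of its gene, with the E-box in capitals.
*Vasa*-Cre primer in *Ddx4*, 24 bases, chr13:112652316-112652339: CACGTGcagccgtttaagccgcgt
*Taf7l*, 250 bases, chrX:134476491-134476740, E-box 49 bases before the start: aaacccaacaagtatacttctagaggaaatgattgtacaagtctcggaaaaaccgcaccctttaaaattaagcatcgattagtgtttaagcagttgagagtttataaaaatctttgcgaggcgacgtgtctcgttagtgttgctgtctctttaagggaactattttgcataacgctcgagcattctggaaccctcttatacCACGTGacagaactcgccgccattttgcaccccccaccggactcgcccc
*Slc25a31*, 234 bases, chr3:40708621-40708854, E-box 93 bases before the start: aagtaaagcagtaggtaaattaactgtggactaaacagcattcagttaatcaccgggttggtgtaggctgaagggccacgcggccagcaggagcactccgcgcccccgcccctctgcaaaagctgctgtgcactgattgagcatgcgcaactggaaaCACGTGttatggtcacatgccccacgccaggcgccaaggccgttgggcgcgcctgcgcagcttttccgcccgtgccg
*Dazl*, 234 bases, chr17:50293637-50293870, no E-box: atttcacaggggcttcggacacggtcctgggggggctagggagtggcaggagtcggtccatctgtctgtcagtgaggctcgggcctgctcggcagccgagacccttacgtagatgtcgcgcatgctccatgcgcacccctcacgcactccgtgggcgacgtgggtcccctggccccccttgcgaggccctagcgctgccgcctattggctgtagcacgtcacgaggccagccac
All but 1 of the 8 promoters held more CpG, the dinucleotide that carries DNA methylation, than the median mouse promoter. They held 6 and 11 CpG at the 2 *Pou5f1* starts, 16 in *Tex19.1*, 17 in *Taf7l*, 19 in *Tex101*, 22 in *Slc25a31*, 28 in *Dazl* and 38 in *Ddx4*, with a median of 18 against 7 over all promoters. At least as many CpG as in *Ddx4* were held by 4.95% of all promoters. That share was 14.2% for *Dazl*, 23.1% for *Slc25a31*, 28.1% for *Tex101*, 31.4% for *Taf7l* and 33.0% for *Tex19.1*. For the *Pou5f1* starts with 11 and 6 CpG it was 41.4% and 56.4%.

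The level of each gene is given as FPKM, sequenced fragments relative to gene length and library depth, as deposited. The recovered reads per library ranged from 15448191 in cKO 1 to 18964743 in Ctrl 2, and the reads behind a member ranged from 36 (*Pou5f1* in cKO 1) to 8740 (*Dazl* in Ctrl 2). The targeted gene *Srsf1* averaged 86.6 ± 3.85 FPKM over the Ctrl libraries (SD, n = 3) and 47.7 ± 3.48 FPKM over the cKO libraries (SD, n = 3), so that 55.1% of the Ctrl level was left. One protocol text in the labels speaks of retinas, whereas the tissue label is testis. Of 9 retinal genes, the summed level was 0.32 to 0.91 FPKM per library and *Crx* and *Nrl* were at 0 in all 6, whereas 9 Sertoli cell markers summed to 1369 to 2582 FPKM. Ctrl 2 stood apart from the other Ctrl libraries in the germ-cell genes, and values with and without it are given below.

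All 10 genes were lower in every cKO library than in every Ctrl library. The share of the Ctrl mean left in the cKO testes ranged from 15.4% for *Rnf17* to 33.2% for *Tex15*, with a median of 25.3% over the 10 genes, while the median tested gene stood at 100.3%. Groups did not overlap, with cKO lower, for 12.8% of the 16206 tested genes (those averaging 0.5 FPKM or more over the 6 libraries; 14.3% of protein-coding ones), and 2.22% of those genes had 33.2% or less of Ctrl left. Fewer germ cells and less RNA in each germ cell cannot be told apart in these whole-testis libraries. With limma on log2(FPKM + 1) over all tested genes, 0 of the 10 passed an adjusted p of 0.05, as did 0% of all tested genes in the lower direction. At an unadjusted p under 0.05, 10 of 10 were lower, against 9.31% of tested genes. Limma voom on the recovered reads called 2 of the 10 lower (*Dazl* and *Dnd1*; background 0.376%), and limma on protein-coding genes alone called 8, all but *Tex15* and *Tex101* (background 1.33%). The call therefore depended on the test and on the genes tested together.

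**Figure D1:**
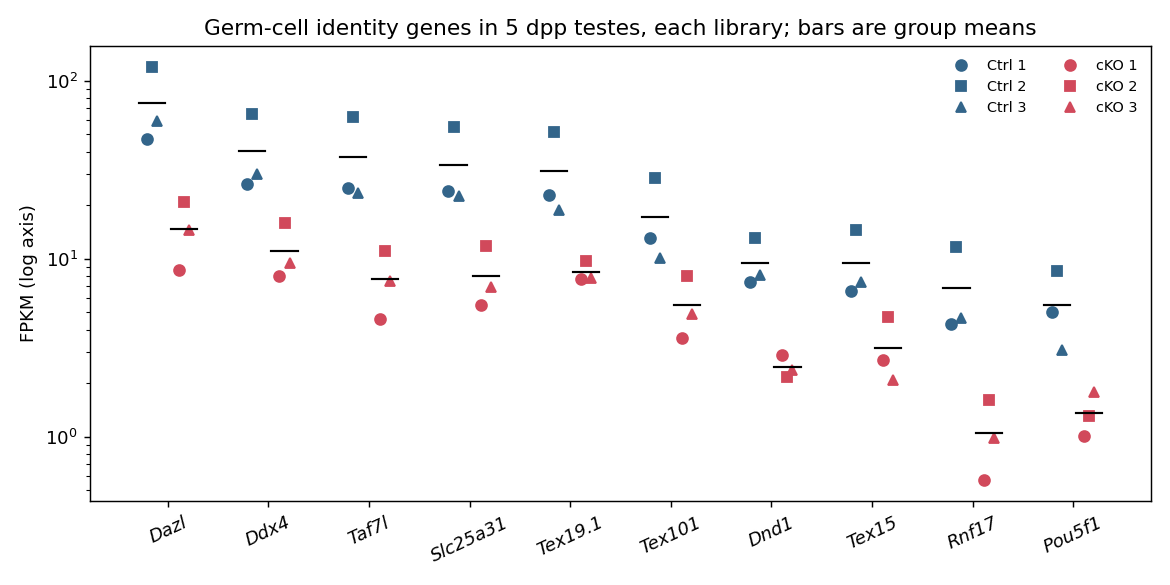
Level of each germ-cell identity gene in each library, in FPKM on a log axis, for 3 Ctrl (blue) and 3 cKO (red) testis libraries, with a black bar at each group's mean. The cKO libraries lie below the Ctrl libraries for all 10 genes, and Ctrl 2 (blue square) is the highest library throughout.

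The first set of members encodes RNA-binding proteins and granule components. *Ddx4* (ENSMUSG00000021758, chr13:112598333-112652475, minus strand) encodes the DEAD-box RNA helicase VASA of the germ granules. In the order of replicates 1, 2 and 3, used throughout, it stood at 26.3, 65.1 and 29.9 FPKM in the Ctrl libraries against 8.01, 15.8 and 9.43 FPKM in the cKO libraries. The highest cKO library lay below the lowest Ctrl library, and 27.4% ± 10.3 of Ctrl was left (SD over the 3 cKO libraries, here and below, as a percent of the Ctrl mean). The log2 fold change was -1.71 (SE 0.37, limma adjusted p = 0.119). *Dazl* (ENSMUSG00000010592, chr17:50279395-50293636, minus strand) encodes an RNA-binding protein that controls translation in germ cells. Its levels were 47.0, 120.2 and 59.3 FPKM in the Ctrl libraries against 8.65, 21.0 and 14.5 FPKM in the cKO libraries. *Dazl* had the highest level of the 10 in each of the 6 libraries, and 19.5% ± 8.16 was left. Its log2 fold change, -2.25 (SE 0.40, limma adjusted p = 0.101), was the most negative of the set on this scale.

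*Dnd1* (ENSMUSG00000044595, chr18:36763671-36766214, minus strand) encodes an RNA-binding protein needed for the survival of primordial germ cells. It was at 7.43, 13.1 and 8.10 FPKM in the Ctrl libraries against 2.87, 2.16 and 2.39 FPKM in the cKO libraries. Here cKO 1 was the highest cKO library, whereas cKO 2 was the highest for most other members, and the cKO libraries lay close together, with 26.0% ± 3.82 left. The log2 fold change was -1.57 (SE 0.20), with the smallest adjusted p of the set, 0.066 by limma. *Dnd1* overlaps *Wdr55*, which averaged 20.6 FPKM, on the opposite strand by 38 bases, and 3.71% of its 50-base stretches occur in *Wdr55* and 0.285% in the pseudogene *Dnd1-ps*. Whether counting used strand was not given in the sources used here, and the part of such reads in the *Dnd1* level was not tested. *Rnf17* (ENSMUSG00000000365, chr14:56402581-56525032, plus strand) encodes a Tudor-domain protein of male germ-cell granules. It was at 4.30, 11.6 and 4.66 FPKM in the Ctrl libraries against 0.570, 1.60 and 0.985 FPKM in the cKO libraries. With 15.4% ± 7.58 it had the smallest share left of the 10, and its log2 fold change was -1.85 (SE 0.35, limma adjusted p = 0.105). On the log2(FPKM + 1) scale the change of low genes is understated, so *Rnf17* ranked below *Dazl*, *Taf7l* and *Slc25a31* in fold change but not in share left.

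The next pair acts in transcription. *Pou5f1* (ENSMUSG00000024406, chr17:35506018-35510772, plus strand) encodes OCT4, the pluripotency factor that germ cells keep into the spermatogonial stage. Its levels were the lowest of the set by Ctrl mean, at 5.03, 8.50 and 3.08 FPKM in the Ctrl libraries against 1.02, 1.31 and 1.79 FPKM in the cKO libraries. Here cKO 3 was the highest cKO library and still lay below Ctrl 3, the lowest Ctrl library. A share of 24.7% ± 7.00 was left, and the log2 fold change was -1.39 (SE 0.29, limma adjusted p = 0.119). Of its 50-base stretches, 10.1% occur in another gene, most of them in *Gm19553*, which overlaps it on the opposite strand by 1475 bases and was at 0 FPKM. *Taf7l* (ENSMUSG00000009596, chrX:134460118-134476490, minus strand) encodes the germline relative of TAF7, a subunit of the general transcription factor TFIID. It was at 24.9, 63.0 and 23.4 FPKM in the Ctrl libraries against 4.61, 11.0 and 7.50 FPKM in the cKO libraries. The groups did not overlap, with 20.8% ± 8.64 left and a log2 fold change of -2.05 (SE 0.42, limma adjusted p = 0.110).

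Members tied to genome defence and meiosis came next. *Tex19.1* (ENSMUSG00000039329, chr11:121146143-121148319, plus strand) encodes a protein that restrains retrotransposons in germ cells. Its levels were 22.7, 51.8 and 18.9 FPKM in the Ctrl libraries against 7.71, 9.72 and 7.85 FPKM in the cKO libraries. The cKO libraries lay close together, and 27.0% ± 3.61 was left. The neighbouring gene *Tex19.2* shares 2.67% of the 50-base stretches of *Tex19.1*. *Tex15* (ENSMUSG00000009628, chr8:33516738-33585582, plus strand) encodes a protein needed for meiotic recombination and for silencing of transposons in fetal male germ cells. It was at 6.61, 14.5 and 7.37 FPKM in the Ctrl libraries against 2.70, 4.69 and 2.09 FPKM in the cKO libraries. The groups did not overlap, and *Tex15* kept the largest share of the 10, 33.2% ± 14.3. Log2 fold changes were -1.64 (SE 0.34) for *Tex19.1* and -1.31 (SE 0.32) for *Tex15*, with limma adjusted p = 0.111 and 0.149.

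The last pair encodes a carrier and a surface protein. *Slc25a31* (ENSMUSG00000069041, chr3:40708855-40726096, plus strand) encodes the ADP/ATP carrier that male germ cells use in the inner mitochondrial membrane. It was at 23.9, 54.9 and 22.7 FPKM in the Ctrl libraries against 5.50, 11.7 and 6.90 FPKM in the cKO libraries, with 23.8% ± 9.67 left. *Tex101* (ENSMUSG00000062773, chr7:24668007-24676675, minus strand) encodes a lipid-anchored glycoprotein of the germ-cell surface. It was at 13.2, 28.3 and 10.1 FPKM in the Ctrl libraries against 3.61, 8.06 and 4.88 FPKM in the cKO libraries, with 32.1% ± 13.4 left. For both genes cKO 2 was the highest cKO library and lay below every Ctrl library. The gap was narrowest for *Tex101*, whose lowest Ctrl library was 1.25 times its highest cKO library, and widest for *Rnf17*, at 2.68 times. Log2 fold changes were -1.89 (SE 0.37) for *Slc25a31* and -1.41 (SE 0.39) for *Tex101*, with limma adjusted p = 0.107 and 0.174, the latter the largest of the set.

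**Figure D2:**
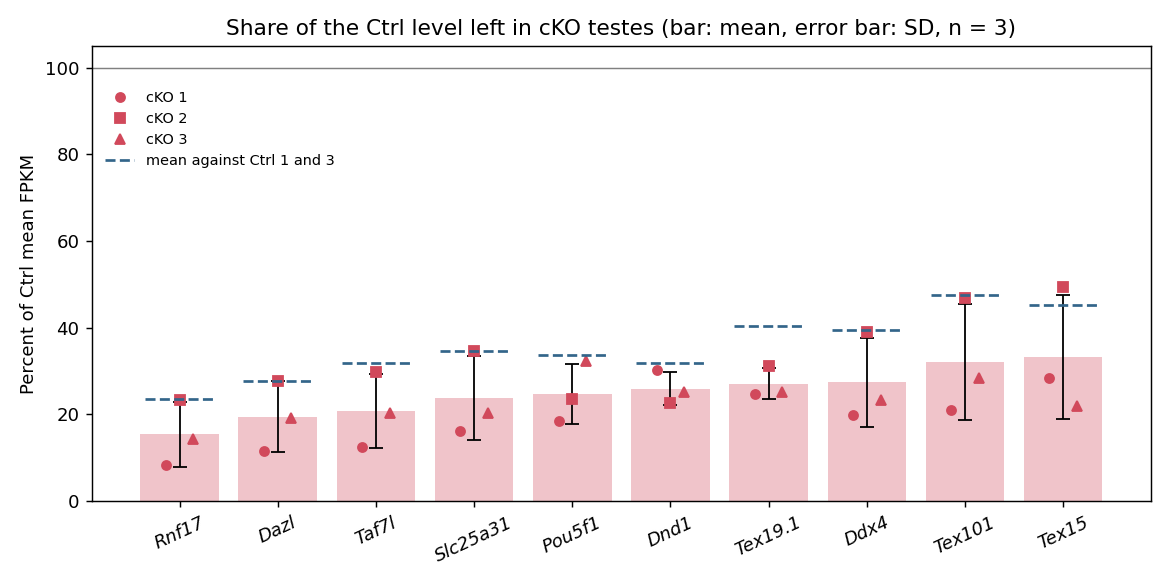
Share of the Ctrl mean FPKM left in cKO testes for each gene, in percent: bars are means, error bars are SD over 3 cKO libraries, points are single cKO libraries, and the grey line marks 100. Dashed lines give the mean share when Ctrl 2 is left out, which raised the median from 25.3% to 34.1%.

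Ctrl 2 was the highest Ctrl library for all 10 genes, at 1.68 times (*Dnd1*) to 2.61 times (*Taf7l*) the mean of Ctrl 1 and Ctrl 3. Over all tested genes the median of this ratio was 0.990, and 5.86% of them reached 1.68. The 9 Sertoli cell markers summed to 1369 FPKM in Ctrl 2, less than in Ctrl 1 (2075 FPKM), Ctrl 3 (2290 FPKM) and the cKO libraries (2104 to 2582 FPKM), and the part of this difference in the results was not tested. Summed over the 10 members, the libraries held 181.3, 430.9 and 187.4 FPKM in Ctrl and 45.2, 87.1 and 58.3 FPKM in cKO testes. Without Ctrl 2 the median share left was 34.1%, and limma called *Dnd1* alone of the 10 (adjusted p = 0.042, from 0.017 to 0.227 over the alternatives tried), with 0.093% of all tested genes called lower. The shares left were then 23.5% for *Rnf17*, 27.7% for *Dazl*, 31.9% for both *Dnd1* and *Taf7l*, 33.8% for *Pou5f1*, 34.5% for *Slc25a31*, 39.4% for *Ddx4*, 40.5% for *Tex19.1*, 45.2% for *Tex15* and 47.5% for *Tex101*. For *Rnf17* and *Taf7l* this was more than 1.5 times the share against all 3 Ctrl libraries. Among the cKO libraries, cKO 2 was the highest for 8 members, the exceptions being *Dnd1* and *Pou5f1*, and cKO 1 was the lowest for 8, the exceptions being *Dnd1* and *Tex15*.

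In Ctrl testes the mean levels per length ran, from high to low, *Dazl* (75.5 ± 39.2 FPKM), *Ddx4* (40.4 ± 21.4), *Taf7l* (37.1 ± 22.5), *Slc25a31* (33.8 ± 18.2), *Tex19.1* (31.2 ± 18.0), *Tex101* (17.2 ± 9.74), *Dnd1* (9.53 ± 3.08), *Tex15* (9.51 ± 4.38), *Rnf17* (6.85 ± 4.11) and *Pou5f1* (5.54 ± 2.75; SD, n = 3). Neighbours in this order differed by less than the SD of the higher of the pair. Within single libraries the order was steadier: *Dazl* ranked 1, *Ddx4* ranked 2 and *Tex101* ranked 6 in all 6 libraries. *Taf7l*, *Slc25a31* and *Tex19.1* stood at ranks 3, 4 and 5 in every Ctrl library and in other orders in the cKO libraries. In the cKO testes the means were 14.7 ± 6.16 FPKM for *Dazl* and 11.1 ± 4.16 FPKM for *Ddx4*, so the pair lay closer than in Ctrl.

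Ratios between 2 members within a library do not depend on how libraries are scaled against each other, and they were compared for all 45 pairs. The groups did not overlap for 13 pairs, or 28.9%, against 23.9% of all pairs of tested genes, a share near the background. Exact two-sided permutation tests gave p = 0.1 for each of these 13, the smallest that 3 against 3 can give, and 0.346 after adjustment over the 45. *Rnf17* was in 7 of the 13 pairs and was lower relative to its partner in cKO each time, and *Dazl* and *Tex101* were in 4 each. *Rnf17* had the smallest share left of the members, and the direction of its pairs restates that. Pairs that share a gene are not independent, and how many pairs a gene takes by itself was not tested. The ratio of *Ddx4* to *Rnf17* was 6.12, 5.62 and 6.43 in Ctrl and 14.1, 9.87 and 9.57 in cKO libraries. The ratio of *Ddx4* to *Dazl* was 0.560, 0.542 and 0.505 in Ctrl and 0.926, 0.755 and 0.651 in cKO libraries. The Ctrl ratios lay close together, although the level in Ctrl 2 was 2.32 times (*Ddx4*) and 2.26 times (*Dazl*) the mean of Ctrl 1 and Ctrl 3. *Dnd1* and *Pou5f1* were in none of the 13 pairs.

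*Ddx4*, *Pou5f1*, *Taf7l* and *Slc25a31* have relatives that most cells express, and 5 of these were set beside them. *Ddx3x*, a DEAD-box helicase gene, averaged 82.2 ± 4.41 against 84.8 ± 7.69 FPKM in Ctrl against cKO testes (SD, n = 3, here and for the other relatives), with a log2 fold change of 0.04 (95% interval -0.19 to 0.27). *Pou2f1*, which encodes OCT1, averaged 1.53 ± 0.152 against 1.42 ± 0.115 FPKM (log2 fold change -0.07, interval -0.33 to 0.20). The carrier genes *Slc25a4* and *Slc25a5* averaged 110.3 ± 12.3 against 129.1 ± 21.1 FPKM and 155.9 ± 19.4 against 168.7 ± 26.6 FPKM, with intervals of the log2 fold change of -0.12 to 0.56 and -0.25 to 0.46. These 4 relatives overlapped between groups, unlike the members beside them. *Taf7*, the widely expressed TFIID subunit gene, was at 21.4, 34.9 and 24.1 FPKM in the Ctrl libraries against 12.8, 17.8 and 17.3 FPKM in the cKO libraries. Its groups did not overlap, 59.6% of Ctrl was left, and the log2 fold change was -0.70 (SE 0.20, limma adjusted p = 0.187). Ctrl 2 was the highest Ctrl library for *Taf7* too, at 1.53 times the mean of Ctrl 1 and Ctrl 3. Limma called 0 of the 5 relatives, 1 of them (*Taf7*) had an unadjusted p under 0.05, and limma voom called 0.

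The difference between member and relative was tested within libraries as the log2 ratio of FPKM + 1. From Ctrl to cKO it moved by -1.76 for *Ddx4* over *Ddx3x*, -1.33 for *Pou5f1* over *Pou2f1*, -1.35 for *Taf7l* over *Taf7*, -2.10 for *Slc25a31* over *Slc25a4* and -1.99 for *Slc25a31* over *Slc25a5*. In each of the 5 comparisons the 3 cKO ratios lay below the 3 Ctrl ratios. Over all pairs of tested genes, ratios without the added 1 did not overlap, in either direction, for 23.9%. The members alone did not overlap between groups, so these separations are not a further result. The comparisons that share *Slc25a31* are not independent. The exact two-sided permutation p was 0.1 for each, and 0.1 after adjustment over the 5, the smallest value possible, so the design could not pass 0.05.

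**Figure D3:**
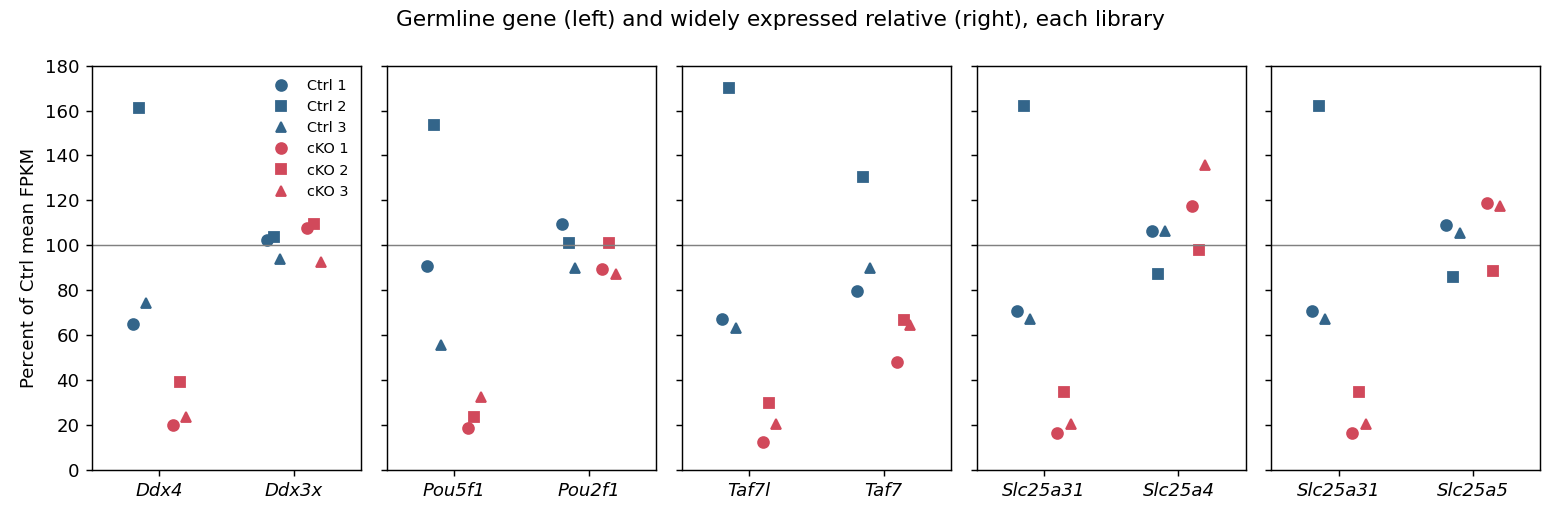
Percent of the Ctrl mean FPKM in each library for a member (left of each panel) and its widely expressed relative (right), Ctrl in blue and cKO in red. The member's cKO libraries lie far below 100 in every panel, the *Ddx3x*, *Pou2f1*, *Slc25a4* and *Slc25a5* libraries of both groups lie around it, and those of *Taf7* are separated by less than those of *Taf7l*.

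Other germline genes were taken from lists of known genes and compared with the members by counts. The first list held 14 germline RNA regulators (Tudor, PIWI, NANOS and related proteins of the granules and the piRNA pathway, which silences transposons with small RNAs). In the cKO libraries 12 of them were lower without overlap, 11 of these among the 12 that passed the filter on low values (background 12.8%). The other, *Nanos2*, rested on few reads: 14, 25 and 3 in the Ctrl libraries against 1, 1 and 2 in the cKO libraries. Among the 12 that passed the filter, limma called 0 (11 lower at an unadjusted p under 0.05, background 9.31%). Limma voom called 2 (*Mael* and *Mov10l1*, background 0.376%) and limma on protein-coding genes 4 (*Nanos3*, *Mael*, *Mov10l1* and *Asz1*, background 1.33%). The median log2 fold change was -1.18, against -1.68 for the members and 0.00 for all tested genes. This scale understates the change of low genes. The median share of Ctrl left over the 12 was 27.4%, against 25.3% over the members. *Mov10l1*, a piRNA pathway helicase gene, had the most negative value, -2.14, with means of 12.7 and 1.91 FPKM (limma adjusted p = 0.088). *Tdrd7*, a Tudor-domain gene, had the least, -0.46, with means of 8.54 and 5.89 FPKM.

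Of 14 other germline-restricted genes in the table, 10 were lower without overlap (background 12.8%). Of the 13 that passed the filter limma called 0 (9 lower at an unadjusted p under 0.05, background 9.31%). Limma voom called 2 (*Tex11* and *Usp26*, background 0.376%) and limma on protein-coding genes 4 (*Tex11*, *Tex14*, *Usp26* and *Nxf2*, background 1.33%). The median share of Ctrl left over the 13 was 21.5%. *Nxf2*, an X-linked mRNA export factor gene, had the most negative log2 fold change, -2.16, with means of 32.8 and 5.76 FPKM. *Tex19.2*, the neighbour of *Tex19.1*, went the other way by its mean, and 1 library set that value. It was at 13.2, 16.6 and 11.9 FPKM in the Ctrl libraries against 13.6, 131.7 and 12.0 FPKM in the cKO libraries, and the groups overlapped. *Tex19.1* was at 9.72 FPKM in the same cKO 2 library.

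Among 10 transcription and pluripotency factors of germ cells, 2 were lower without overlap, *Sall4* with 39.3% and *Lin28a* with 29.3% of Ctrl left. In the other direction 1 was higher without overlap, *Sox2* (background 12.8% lower and 10.3% higher). Of the 6 that passed the filter, 3 fell and 3 rose, with a median log2 fold change of -0.26 and a median share left of 91.4%. *Prdm1* (129.5% of Ctrl) and *Utf1* (127.5%) rose with overlap, and *Dppa4* (55.2%) fell with overlap. *Sox2* was at 0.0601, 0.255 and 0.176 FPKM in the Ctrl libraries against 0.865, 1.40 and 1.13 FPKM in the cKO libraries, from 2 to 10 and from 28 to 48 reads, and limma on protein-coding genes called it higher (log2 fold change 0.87, adjusted p = 0.027, background 0.28%), but limma over all tested genes (0.101) and limma voom (0.054, background 0.136% higher) did not. *Pou5f1*, which works with SOX2 in pluripotent cells, was lower in the same libraries. Of 8 meiotic and spermatid genes only *Sycp1*, of the synaptonemal complex, passed the filter. It averaged 10.7 against 2.60 FPKM, with 24.4% left, near the median of the members.

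Of 25 markers of Sertoli, Leydig, peritubular myoid, endothelial cells and macrophages, 3 were lower and 6 were higher in cKO without overlap (background 12.8% and 10.3%), with a median log2 fold change of 0.06. List medians were -0.05 for Sertoli cells, 0.47 for Leydig cells, -0.35 for peritubular myoid cells, 0.36 for endothelial cells and 0.06 for macrophages. Limma called 0 of the 25, and limma on protein-coding genes called 2 lower, the tight-junction gene *Cldn11* of the Sertoli list (49.5% of Ctrl left, adjusted p = 0.049) and the smooth-muscle myosin gene *Myh11* of the peritubular list (64.3%, adjusted p = 0.049), against 1.33% of all protein-coding genes. Of the 25, 10 had an unadjusted p under 0.05 (3 lower and 7 higher, against 9.31% and 6.6% of tested genes), and limma voom called 0. The part of a changed mix of cells in the members' values was not tested.

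**Figure D4:**
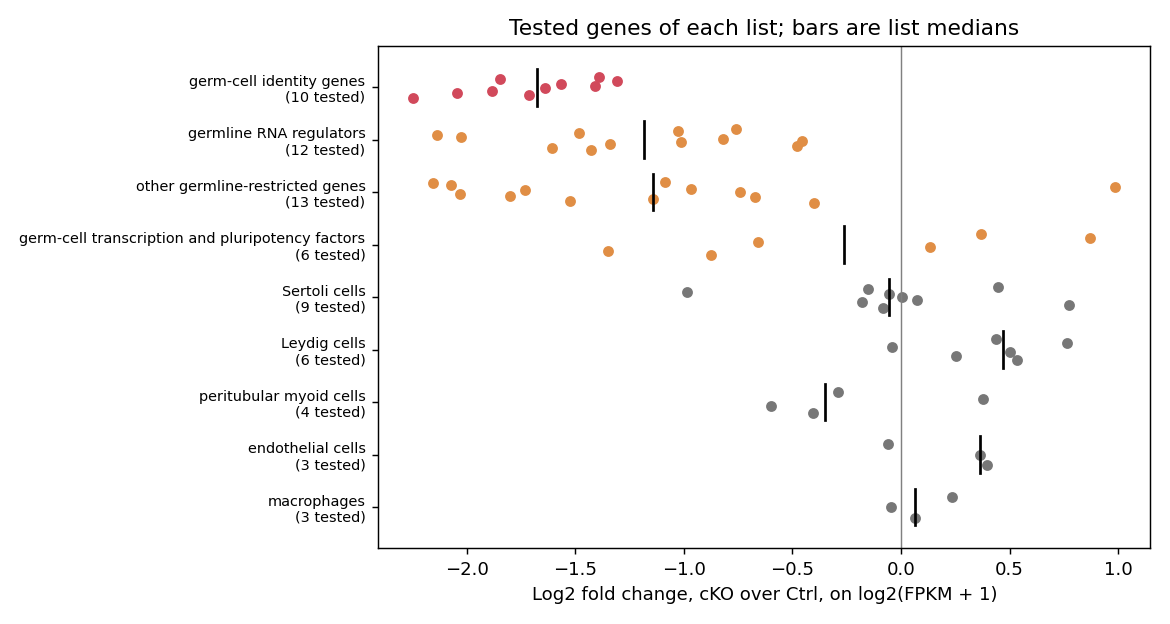
Log2 fold change (cKO over Ctrl, on log2(FPKM + 1)) of every tested gene in each list, with a black bar at the list's median: members in red, other germline lists in orange, somatic cell lists in grey. The 10 members lie between -2.25 and -1.31, and the medians of the somatic lists lie between -0.35 and 0.47.

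The genes whose pattern over the 6 libraries was most like that of the members were found by the root mean square distance, in log2 units, between a gene's centred profile and the median profile of the members, among the 13999 other genes that averaged 1 FPKM or more. The nearest was *Rpl10l* (distance 0.073), a germline copy of a ribosomal protein gene, which averaged 33.2 against 8.97 FPKM, with 27.0% left. *Gm4779* (0.082), *Rpl39l* (0.090), also a germline copy of a ribosomal protein gene, and *Tex14* (0.093), a gene of the bridges between germ cells, followed. *Xlr5a*, *Gpat2*, *8030474K03Rik* and *Tex11* stood at 0.116, 0.122, 0.124 and 0.127. *Xlr5a* belongs to a family of near-identical X-linked copies, so its reads are uncertain. The 8 genes were picked as the nearest of the 13999, so their small distances follow from that choice. The members' own distances to the median profile ran from 0.055 (*Rnf17*) to 0.340 (*Pou5f1*). The high level in Ctrl 2 is part of that profile and of these distances, which describe 6 libraries and carry no test.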

How the data were processed

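Whole testes at 5 dpp were profiled in 3 Ctrl and 3 cKO libraries, grouped by their labels. Per the study's methods and the submitters' processing notes, the authors aligned reads to mm10 with HISAT2 2.0.5, counted them with featureCounts, tested them with DESeq2 and deposited FPKM. From their RNA-seq the authors reported genes changed in both directions, with *Dnd1* and *Pou5f1* among the reduced ones. Their test on counts was not repeated here, and the limma calls on FPKM are not its outcome. The GRCm38 coordinates of all 10 genes were the same in GENCODE M21. Within 0.01, 100% of FPKM times gene length were whole multiples of 1 step per library, which gave the reads. Genes averaging 0.5 FPKM or more (16206, 13204 of them protein-coding) were fitted with limma 3.58.1 (R 4.3.3), groups only, mean-variance trend, on log2(FPKM + 1). P-values were two-sided and Benjamini-Hochberg adjusted over all of them, with a threshold of 0.05. This code was tested on simulated data, whose spread was not matched to that of these libraries. For a gene of 1 kb, 3 reads correspond to 0.158 to 0.194 FPKM, which covers counting error only.

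The members and all lists were chosen with earlier results of these data known. The member ratios and motifs were chosen with values or sequences in view. Named were the members, their 5 relatives, *Srsf1*, the lowest and highest fold change of each germline list, genes behind counts of 5 or fewer, and the 8 nearest profiles. *Usp26*, *Sall4*, *Prdm1*, *Utf1*, *Dppa4*, *Mael*, *Nanos3*, *Asz1*, *Tex14* and *Tex11* account for such counts, and *Nanos2* is named as the separated RNA regulator below the filter. Alternatives covered scaling, pseudocount, filter, trend, gene set, voom, a replicate block and leaving out each library.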

Additional observations from a re-analysis of the deposited data

How the results depend on the processing

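Of the 150 log2 fold changes of the 10 genes under the alternatives, 17 passed the threshold. With limma, 0 of the 10 were called, against 8 on protein-coding genes alone and 2 with limma voom, and 0 to 1 when a library was left out. Other germline genes called lower went from 0 to 8 and 4 under those same settings. Over all genes, limma called 0 lower and 0 higher, against 176 and 37 on protein-coding genes, 61 and 22 with voom, 1 and 4 on TPM, 1 higher without the mean-variance trend, and 0 to 15 lower and 0 to 5 higher when a library was left out. The median share of Ctrl left, 25.3%, ranged from 21.5% to 34.1% when a library was left out, and 80 of 90 shares of single genes moved by less than 1 SD. The others were 9 without Ctrl 2 (*Tex15* excepted) and *Tex19.1* without Ctrl 3, at 22.6%. The change of *Ddx3x* turned in sign when a library was left out, from -0.0025 to 0.12, and was -0.0025 without Ctrl 3 and -0.00082 without cKO 2.

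The shared replicate numbers were not used as pairs in the main fit, and whether they pair the samples was not tested. Correlations of deviations between same-numbered Ctrl and cKO libraries were 0.066, 0.016 and 0.088. Between libraries of different number they ran from -0.095 to 0.041. With the number as a replicate block, limma called 6 of the 10 (*Ddx4*, *Dazl*, *Taf7l*, *Slc25a31*, *Tex15* and *Rnf17*; background 0.518%), 9 other germline genes, and 84 genes lower and 14 higher.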
